A study of Mus musculus with 12 samples.

Results

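The dual specificity MAP kinase phosphatases are a gene family of 10 members in the mouse (Dusp1, Dusp2, Dusp4, Dusp5, Dusp6, Dusp7, Dusp8, Dusp9, Dusp10 and Dusp16). All 10 were found by their Ensembl identifiers among the 51826 genes counted by RNA sequencing in 12 pre-B cell lines. Marrow cells of 2 C57BL/6 mice were cultured with interleukin 7 (IL7) for 7 days, transduced with a pMIG retroviral vector that was either empty (EV) or carried BCR-ABL1, and held in IL7 for another 48 h. From each mouse 3 EV lines and 3 BCR-ABL1 lines were made, so that 6 lines stood in each condition. The BCR-ABL1 lines then spent 1 week without IL7. The EV lines stayed in IL7 for a similar time before a sort on GFP, which the vector expresses. No such sort is stated for the BCR-ABL1 lines, and BCR-ABL1, IL7 withdrawal and the sort cannot be told apart in these data. Lines are named by mouse and letter, so that EV 2B is an EV line of mouse 2. With only 2 mice, all errors and p values given here measure the spread between lines.

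MAP kinases (ERK, JNK and p38) are switched on by phosphorylation of a threonine and a tyrosine in their activation loop, and enzymes of this family switch them off by removing both phosphates. Dusp1, Dusp2, Dusp4 and Dusp5 are nuclear enzymes whose genes are induced by mitogens and stress. Dusp6, Dusp7 and Dusp9 are cytoplasmic and act mainly on ERK, and Dusp8, Dusp10 and Dusp16 act mainly on JNK and p38. Several of these genes are themselves transcribed in response to ERK, which makes them part of a negative feedback. The kinase BCR-ABL1, a fusion made by the Philadelphia chromosome, signals through RAS and ERK among other pathways, and IL7 supports the growth of normal pre-B cells.

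EV lines held 34791011 to 64547911 counts on genes, and BCR-ABL1 lines held 45230023 to 66011225. EV 2C stood apart from the other EV lines of its mouse, with a chi-square of the counts per gene of 270.1 against EV 2A and 434 against EV 2B, where the other 10 pairs that shared mouse and condition had 9.36 to 78.1. EV 2A and EV 2B had counts on 57.4% and 36.7% of the 36788 genes that were too low to be tested, against 14.2% to 27.9% in the other lines. The label of pro-B or pre-B cells was checked against 16 B lineage markers, all of which were tested. Cd79a, which helps define the lineage, was at 294 to 611 CPM (counts scaled to a common library size) over the 12 lines. The 12 myeloid markers summed to at most 1.96 CPM in any line and the 7 mast cell and basophil markers to at most 0.307 CPM. The 10 T and NK cell markers summed to between 11.2 and 42.0 CPM in EV lines and between 0.685 and 4.77 CPM in BCR-ABL1 lines. In EV lines most of that was Trac (9.99 to 41.1 CPM), while Cd3e, which defines T cells, was at 0.123 CPM or less. The 8 erythroid markers summed to 1.28 to 6.83 CPM in EV against 5.94 to 12.7 CPM in BCR-ABL1 lines, with Hba-a1 and Hba-a2 at 0 in all lines. The 7 stromal and endothelial markers summed to 32.7 to 172.1 CPM in EV against 82.1 to 102.4 CPM in BCR-ABL1 lines, and Pecam1, which B cell precursors also express, was the only one of them to be tested. The part of these cells in the values below was not tested, and more cells of a type and more RNA per cell cannot be told apart in bulk samples.

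The conditions were compared with edgeR's glmTreat (quasi-likelihood fit), in which a gene is called when its change between the 6 EV and the 6 BCR-ABL1 lines is larger than 1.5-fold. The threshold was an FDR, the p adjusted after Benjamini and Hochberg over 15038 tested genes, of less than 0.05. The family moved in both directions. Of its 10 members 8 were tested, and of these Dusp5 and Dusp7 were called higher in BCR-ABL1 lines and Dusp10 was called lower. Among all tested genes 5.99% were called higher and 6.49% lower. In 5 of the 8 members no BCR-ABL1 line overlapped with an EV line, 3 lying above (Dusp5, Dusp6 and Dusp7) and 2 below (Dusp2 and Dusp10), where 12.1% of all tested genes lay above and 13.5% below. When the same fit was tested against no change instead of 1.5-fold, those 5 members were called, beside 22.5% of all genes higher and 25.9% lower. With mouse as a block in the fit, 7.49% of all genes were higher and 7.18% lower, and the calls of the members were those without it. The median log2 fold change of the 8 tested members was 0.34, and that of all tested genes was -0.02. Dusp8 and Dusp9 had too few counts for the test.

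**Figure D1:**
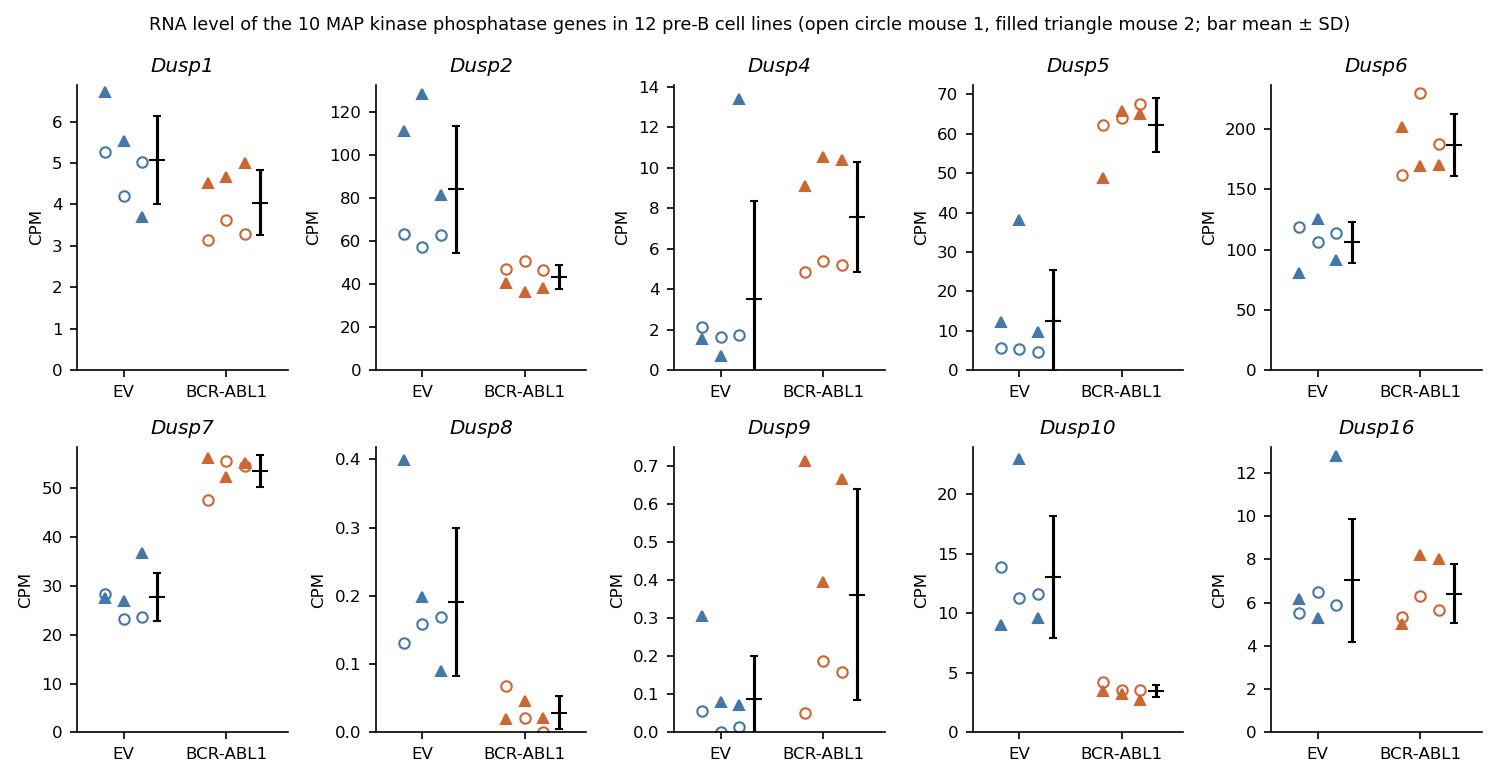
RNA level of each of the 10 genes in CPM (vertical axes, starting at 0) in the 6 EV and the 6 BCR-ABL1 lines. Open circles are lines of mouse 1, filled triangles lines of mouse 2, and bars the mean ± SD of 6 lines (cut off at 0 where the SD exceeds the mean). The BCR-ABL1 lines sit wholly above the EV lines for Dusp5, Dusp6 and Dusp7 and wholly below for Dusp2 and Dusp10, and single EV lines of mouse 2 stand high for Dusp4 (13.4 CPM), Dusp5 (38.2 CPM), Dusp10 (22.9 CPM) and Dusp16 (12.8 CPM).

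Dusp5 encodes a nuclear phosphatase that is selective for ERK, and its gene lies at chr19:53529109-53542431 on the plus strand (GRCm38). The 214 bases that end just before this start, from the RefSeq promoter table (GRCm38.p6, chr19:53528895-53529108, plus strand), are shown since Dusp5 rose most among the members. Capitals mark 2 CArG boxes, the motif bound by serum response factor, which lie side by side 82 and 72 bases before the RefSeq start.
Dusp5: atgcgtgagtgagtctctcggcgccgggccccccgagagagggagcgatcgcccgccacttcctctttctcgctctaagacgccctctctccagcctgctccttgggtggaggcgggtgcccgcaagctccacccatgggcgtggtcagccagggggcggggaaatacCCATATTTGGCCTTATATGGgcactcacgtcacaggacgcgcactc
A CArG box on either strand was held by 1.47% of the 32851 promoters in the table over the same 250 bases, and by 1 of the 8 members found there.

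In EV lines Dusp5 was at 4.68 CPM at the lowest, 7.62 at the median and 38.2 at the highest, and in BCR-ABL1 lines at 48.8, 64.5 and 67.5 CPM. Every BCR-ABL1 line was above every EV line, and the highest EV line was EV 2B. The mean was 12.6 ± 12.9 CPM in EV and 62.2 ± 6.82 CPM in BCR-ABL1 lines (SD, n = 6 each). The fit gave this as a 4.94-fold rise (log2 fold change 2.305, FDR 0.0119). The standard error, here and below that of the difference of mean log2 CPM and not from the fit, was 0.47. Without EV 2B the log2 fold change was 3.05 (FDR 3.11e-05). In GENCODE M21 an antisense gene, AC137853.2, shares 547 bases of exon with Dusp5. Since it is not stated whether strand was used in counting, reads of this gene and of Dusp5 cannot be told apart there.

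Dusp2 (chr2:127336159-127338376, plus strand) is a nuclear phosphatase first known from activated lymphocytes. Its lowest, median and highest levels were 57.0, 72.3 and 128.0 CPM in EV lines and 36.5, 43.6 and 50.7 CPM in BCR-ABL1 lines. No BCR-ABL1 line reached an EV line. The log2 fold change of -0.96 (standard error 0.21) did not pass the test against 1.5-fold (FDR 0.0794), although it passed the test against no change (FDR 0.00228). Leaving out EV 1B brought it past the 1.5-fold test (log2 fold change -1.05, FDR 0.0390).

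Dusp4 (chr8:34807297-34819894, plus strand) is a nuclear phosphatase of ERK, JNK and p38. EV lines had 0.715 CPM at the lowest, 1.68 at the median and 13.4 at the highest, and BCR-ABL1 lines had 4.83, 7.25 and 10.5 CPM. EV 2C, at 13.4 CPM, was the only EV line that overlapped with BCR-ABL1 lines and was above all 6 of them, whereas the other 5 EV lines did not exceed 2.15 CPM. With all 12 lines a log2 fold change of 1.10 (standard error 0.61) was not called (FDR 0.538), and without EV 2C it was 2.28 and called (FDR 0.000995), as the third member higher, where 8.83% of all genes were called higher and 9.35% lower.

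Dusp1 (chr17:26505590-26562128, minus strand) is the founding member of the family and acts on p38, JNK and ERK. It ran from 3.70 to 6.72 CPM in EV lines (median 5.15) and from 3.14 to 5.001 CPM in BCR-ABL1 lines (median 4.07), and the conditions overlapped. A log2 fold change of -0.33 (standard error 0.17) was far from the threshold (FDR 1.00), and the test against no change gave an FDR of 0.143.

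Dusp6 (chr10:99263231-99267489, plus strand) encodes the best known feedback phosphatase of ERK in the cytoplasm. Its EV lines were at 80.6 CPM at the lowest, 110.3 at the median and 125 at the highest, and the BCR-ABL1 lines at 162, 179 and 229.7 CPM. All BCR-ABL1 lines were above all EV lines. A level 1.76-fold that of EV lines (log2 fold change 0.82, standard error 0.13) lay close to the 1.5-fold limit and missed the threshold (FDR 0.0719), while the test against no change was passed (FDR 0.000252). Without EV 1A or without EV 2B the 1.5-fold test was passed (log2 fold changes 0.88 and 0.86, FDR 0.0474 and 0.0465).

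Dusp7 (chr9:106368632-106375724, plus strand) is a close relative of Dusp6 and also acts on ERK in the cytoplasm. The 250 bases before its start (chr9:106368382-106368631, RefSeq, GRCm38.p6, plus strand) are shown because it was the second member called higher. Capitals mark ATTGG, which is the CCAAT box read on the reverse strand, 26 bases before the start.
Dusp7: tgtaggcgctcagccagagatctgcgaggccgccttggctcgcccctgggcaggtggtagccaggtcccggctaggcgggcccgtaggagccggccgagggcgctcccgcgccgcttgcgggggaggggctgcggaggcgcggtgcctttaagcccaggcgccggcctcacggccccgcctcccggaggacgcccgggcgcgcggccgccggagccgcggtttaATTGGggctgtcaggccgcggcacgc
These bases hold 77.2% G and C, against a median of 52.4% over all promoters in the table. EV lines had 23.2 CPM at the lowest, 27.2 at the median and 36.7 at the highest, and BCR-ABL1 lines 47.5, 54.8 and 56.3 CPM. Even the highest EV line, EV 2C, was below the lowest BCR-ABL1 line. The mean rose from 27.7 ± 4.88 to 53.5 ± 3.25 CPM (SD, n = 6 each), or 1.93-fold (log2 fold change 0.95, standard error 0.10, FDR 0.00618). Dusp7 thus rose less than Dusp5, but its lines varied less within the conditions.

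Dusp9 (chrX:73639419-73643514, plus strand), a cytoplasmic ERK phosphatase best known from the placenta, was near the limit of detection. EV lines had between 0 and 10 reads and BCR-ABL1 lines between 3 and 37, where 3 reads or fewer were taken as no more than background. This corresponds to 0 to 0.307 CPM in EV against 0.0509 to 0.713 CPM in BCR-ABL1 lines. The 3 BCR-ABL1 lines of mouse 2 were highest, at 0.395 to 0.713 CPM, above the 0.0509 to 0.188 CPM of the BCR-ABL1 lines of mouse 1 and above all EV lines. When no genes were filtered out, its log2 fold change between the conditions was 2.25 (FDR 0.156).

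Dusp10 (chr1:184013302-184075636, plus strand) acts on JNK and p38 and was the only member called lower. The 250 bases before its RefSeq start (chr1:184034131-184034380, GRCm38.p6, plus strand) are shown for that reason. This window lies inside the gene as annotated in GENCODE M21, which begins further upstream, at chr1:184013302. Capitals mark CCAAT boxes, 1 of them on the plus strand 161 bases before the start and 2 on the reverse strand (ATTGG) 169 and 49 bases before it.
Dusp10: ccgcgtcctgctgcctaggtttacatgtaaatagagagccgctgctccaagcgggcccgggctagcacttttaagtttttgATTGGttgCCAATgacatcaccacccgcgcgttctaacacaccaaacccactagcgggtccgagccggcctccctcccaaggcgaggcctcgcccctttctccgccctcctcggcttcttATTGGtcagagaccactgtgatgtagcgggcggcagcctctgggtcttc
A CCAAT box was held by 33.8% of all promoters in the table and by 5 of the 8 members found there (Dusp6, Dusp7, Dusp8, Dusp10 and Dusp16).

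Levels of Dusp10 in EV lines were 9.05 CPM at the lowest, 11.4 at the median and 22.9 at the highest, and in BCR-ABL1 lines 2.68, 3.50 and 4.22 CPM. The conditions were far apart, and the highest EV line was EV 2B, as for Dusp5. This gave a log2 fold change of -1.92 (standard error 0.22) with an FDR of 0.000459, and the change remained between -2.14 and -1.68 and past the threshold in all 23 alternative settings, the lines of each mouse alone among them. 1700056E22Rik, a gene on the opposite strand within Dusp10 that shares no exon with it, was also lower, with 47 to 208 reads in EV and 13 to 28 in BCR-ABL1 lines (log2 fold change -2.07, FDR 0.00593). As the use of strand in counting is not stated, its reads and reads from introns of Dusp10 cannot be told apart.

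Dusp16 (chr6:134715468-134792625, minus strand), a JNK phosphatase, had 5.28 CPM at the lowest, 6.02 at the median and 12.8 at the highest in EV lines, and 5.01, 5.98 and 8.20 CPM in BCR-ABL1 lines. The conditions overlapped, and EV 2C alone was high. The log2 fold change of -0.13 (standard error 0.23, FDR 1.00) turned to 0.13 without EV 2C. Dusp8 (chr7:142079490-142095843, minus strand), a phosphatase of JNK and p38 known from brain and heart, was hardly detected, with 5 to 13 reads in EV lines and 0 to 4 in BCR-ABL1 lines. The sums were 57 reads over 6 EV lines and 10 over 6 BCR-ABL1 lines. With no genes filtered out its log2 fold change was -2.47 (FDR 0.0324), a value that rests on BCR-ABL1 lines at or near the floor of 3 reads.

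**Figure D2:**
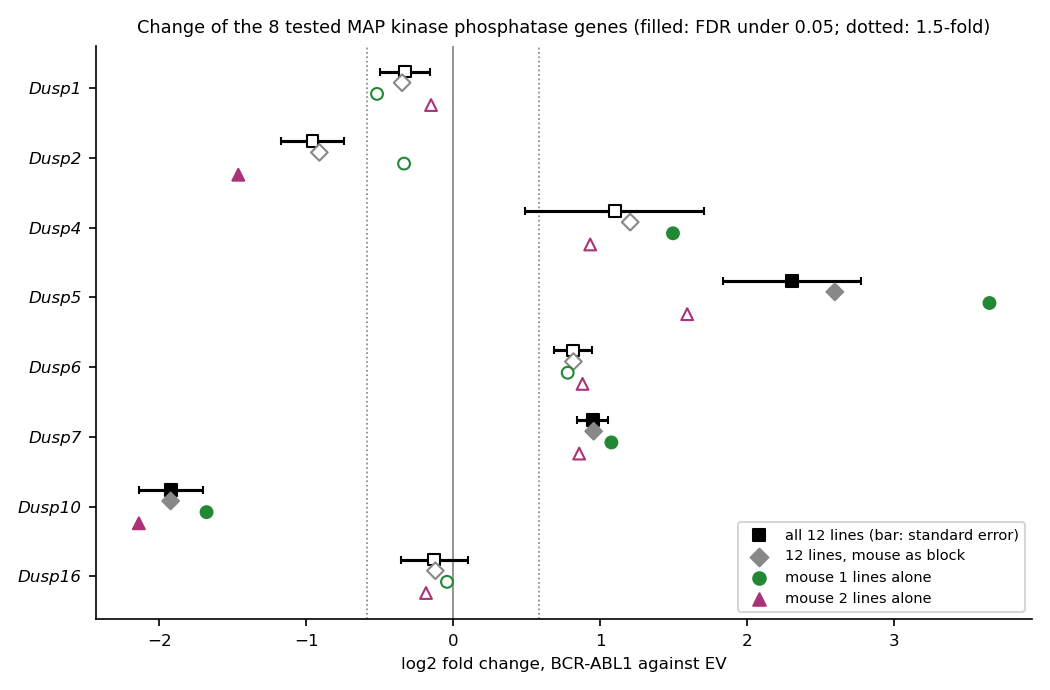
Log2 fold change, BCR-ABL1 against EV (horizontal axis), of the 8 tested members. Squares are all 12 lines, with bars of 1 standard error of the difference of mean log2 CPM. Diamonds have mouse as a block, and circles and triangles are the lines of mouse 1 and of mouse 2 alone. Filled symbols passed the test against 1.5-fold (dotted lines) at an FDR under 0.05. Dusp10 is filled in all fits, Dusp5 and Dusp7 in all but mouse 2 alone, and the mice lie furthest apart for Dusp5 (3.65 and 1.59) and Dusp2 (-0.33 and -1.46).

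The effect was next compared between the mice, since each gave 3 lines per condition. A difference of the BCR-ABL1 effect, tested as an interaction term (mouse 2 minus mouse 1), was found for 2 of the 8 members, Dusp2 and Dusp5, against 16.9% of all tested genes. For both genes the EV lines differed between the mice. Dusp2 was at 63.2, 57.0 and 62.6 CPM in the EV lines of mouse 1 and at 111, 128.0 and 81.4 CPM in those of mouse 2. In BCR-ABL1 lines it was at 46.9, 50.7 and 46.5 CPM in mouse 1 and 40.7, 36.5 and 37.9 CPM in mouse 2. All EV lines of mouse 2 were thus above those of mouse 1 (log2 difference 0.81, FDR 0.00127), while the log2 difference between the mice in BCR-ABL1 lines was -0.32 (FDR 0.244). The effect on Dusp2 differed between the mice (interaction -1.13, FDR 0.00218), and a fall was called in mouse 2 alone (log2 fold change -1.46, FDR 0.0139) but not in mouse 1 alone (-0.33, FDR 1.00). The interaction was passed in all 15 alternatives, with FDR up to 0.00891.

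Dusp5 was at 5.57, 5.30 and 4.68 CPM in the EV lines of mouse 1 and at 12.2, 38.2 and 9.66 CPM in those of mouse 2. BCR-ABL1 lines had 62.3, 64.0 and 67.5 CPM in mouse 1 and 48.8, 65.7 and 65.0 CPM in mouse 2. The EV lines of mouse 2 were higher (log2 difference 1.95, FDR 0.00558, and 1.07 with an FDR of 0.000439 without EV 2B), whereas in BCR-ABL1 lines the mice differed by -0.11 (FDR 0.953). The log2 fold change of Dusp5 was larger in mouse 1 (3.65, FDR 2.18e-10) than in mouse 2 (1.59, FDR 0.218), with an interaction of -2.06 (FDR 0.0291). This interaction was less stable than that of Dusp2. It was passed in 6 of 15 alternatives and missed when any EV line of mouse 1 or any BCR-ABL1 line was left out (FDR 0.0544 to 0.0723). Without EV 2B it was -1.18 (FDR 0.00188).

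The EV lines of mouse 2 differed from those of mouse 1 in 24.8% of all tested genes, the BCR-ABL1 lines in 5.97%. In EV lines the 2 members called between the mice were again Dusp2 and Dusp5. In BCR-ABL1 lines edgeR's quasi-likelihood test called 0 of the 8 members, with 2 at an unadjusted p under 0.05, and DESeq2 likewise called 0. Without EV 2C the same test called 3 (Dusp4 with a log2 difference of 0.96 and FDR 0.00538, Dusp1 with 0.50 and 0.0300, Dusp2 with -0.33 and 0.0112), where the share of all genes called rose to 16.1%. EV 2C is no part of this contrast, but the fit estimates spread over EV and BCR-ABL1 lines together. With all lines the log2 difference of Dusp4 was also 0.96 (FDR 0.639). For Dusp4 the BCR-ABL1 lines were at 4.83, 5.39 and 5.18 CPM in mouse 1 and 9.11, 10.5 and 10.4 CPM in mouse 2, and the groups did not overlap. In the EV lines Dusp4 was at 2.15, 1.65 and 1.72 CPM in mouse 1 and at 1.56, 0.715 and 13.4 CPM in mouse 2. The values of Dusp4 between the mice turned on EV 2C. Its log2 difference in EV lines went from 1.52 (FDR 0.188) to -0.74 (FDR 0.0394) when that line was left out, and its interaction from -0.56 (FDR 0.796) to 1.70 (FDR 0.00176). Dusp4 was then the third member with a called interaction, beside Dusp2 and Dusp5, while 36% of all genes were called for the interaction and 45.7% between the mice in EV lines. Leaving out EV 2B instead gave Dusp4 a log2 difference of 2.04 in EV lines (FDR 0.0260). The sign of the called difference thus changed with the line left out.

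In the lines of mouse 1 alone, Dusp4, Dusp5 and Dusp7 were called higher (log2 fold changes 1.496, 3.65 and 1.08) and Dusp10 lower (-1.68), where 16.3% of the genes tested in these 6 lines were called higher and 12.2% lower. In mouse 2 alone glmTreat called 0 members higher, with 4 of 9 tested at an unadjusted p under 0.05, and called Dusp2 and Dusp10 lower (-1.46 and -2.14), beside 3.99% of genes higher and 2.65% lower. Dusp7 rose by 1.08 in mouse 1 (FDR 0.000175), and its log2 fold change in mouse 2 was 0.86 (FDR 0.139). The difference between the mice was not called for Dusp7 (interaction -0.22, FDR 0.477) nor for Dusp10 (-0.46, FDR 0.549). Dusp6 had log2 fold changes of the same sign in mouse 1 and mouse 2, at 0.78 (FDR 0.0515) and 0.88 (FDR 0.185).

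**Figure D3:**
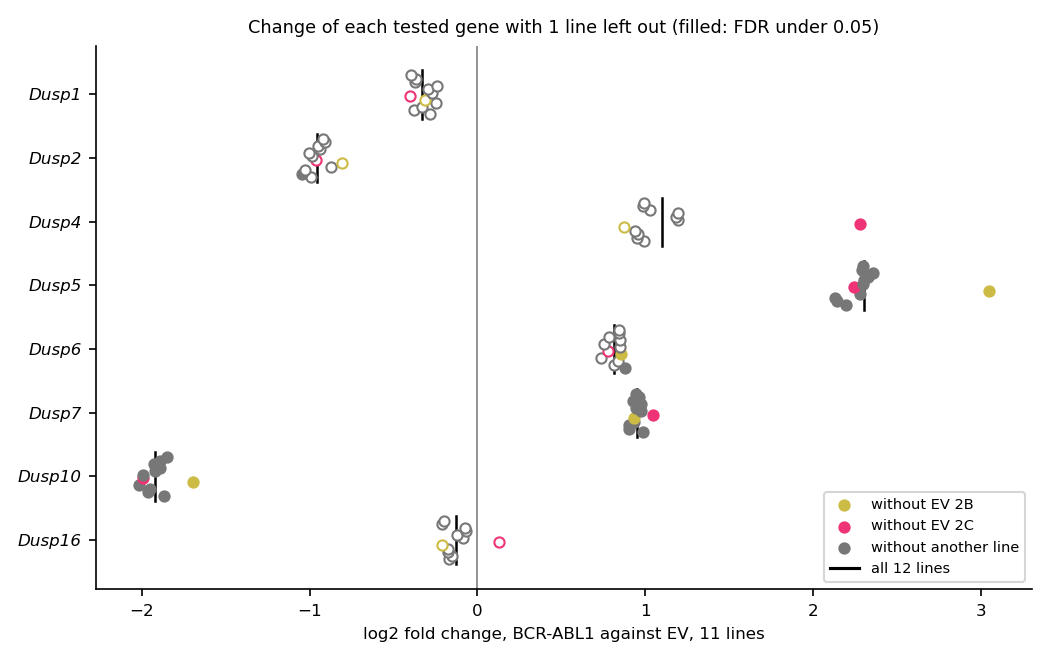
Log2 fold change (horizontal axis) of the 8 tested members when each of the 12 lines was left out in turn. Yellow points leave out EV 2B, pink points EV 2C, grey points any other line, and black bars mark the value with all lines, filled points having an FDR under 0.05. Dusp5 moves from 2.305 to 3.05 without EV 2B, Dusp4 from 1.10 to 2.28 without EV 2C, and Dusp16 from -0.13 to 0.13 without EV 2C, whereas Dusp7 stays between 0.90 and 1.05 and Dusp10 between -2.02 and -1.69.

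To compare levels between members, CPM were divided by the length of the merged exons in kb. In EV lines the medians of CPM per kb were highest for Dusp2 (36.1) and Dusp6 (35.2), and the ranges of these overlapped. Then came Dusp7 (8.11), Dusp10 (3.76), Dusp5 (3.08), Dusp1 (1.55), Dusp16 (0.772) and Dusp4 (0.614), and in this row the ranges of each pair of neighbours overlapped, though Dusp6 and Dusp7 were apart. Dusp8 and Dusp9 were last, with medians of 0.0336 and 0.0236. In BCR-ABL1 lines Dusp6 led with 57.2 CPM per kb, apart from all others. It was followed by Dusp5 (26.1) and Dusp2 (21.7), with overlapping ranges, and then by Dusp7 (16.3) and Dusp4 (2.65), each apart from its neighbours. Dusp1 (1.23), Dusp10 (1.15) and Dusp16 (0.767) followed with overlapping ranges.

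As a share of the summed CPM per kb of the family, Dusp2 made up a median of 40.0% in EV lines (35.9% to 54.95%) and 16.6% in BCR-ABL1 lines (14.9% to 19.6%). Dusp5 made up 3.42% in EV lines (2.27% to 11.2%) and 20.9% in BCR-ABL1 lines (15.4% to 21.8%). The shares of the cytoplasmic ERK phosphatases Dusp6 and Dusp7 overlapped between the conditions. Dusp6 made up 36.9% in EV lines (25.5% to 43.7%) and 45% in BCR-ABL1 lines (43.3% to 50.4%), and Dusp7 made up 8.65% (5.84% to 11.4%) and 12.6% (11.3% to 13.3%). Dusp10 made up 4.66% in EV lines (2.95% to 5.48%) and 0.875% in BCR-ABL1 lines (0.712% to 1.16%). The sum over the 10 members was 216 to 353 CPM in EV lines (median 249) and 336 to 419 CPM in BCR-ABL1 lines (median 363), with overlap. These shares and sums are descriptions and were not tested.

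**Figure D4:**
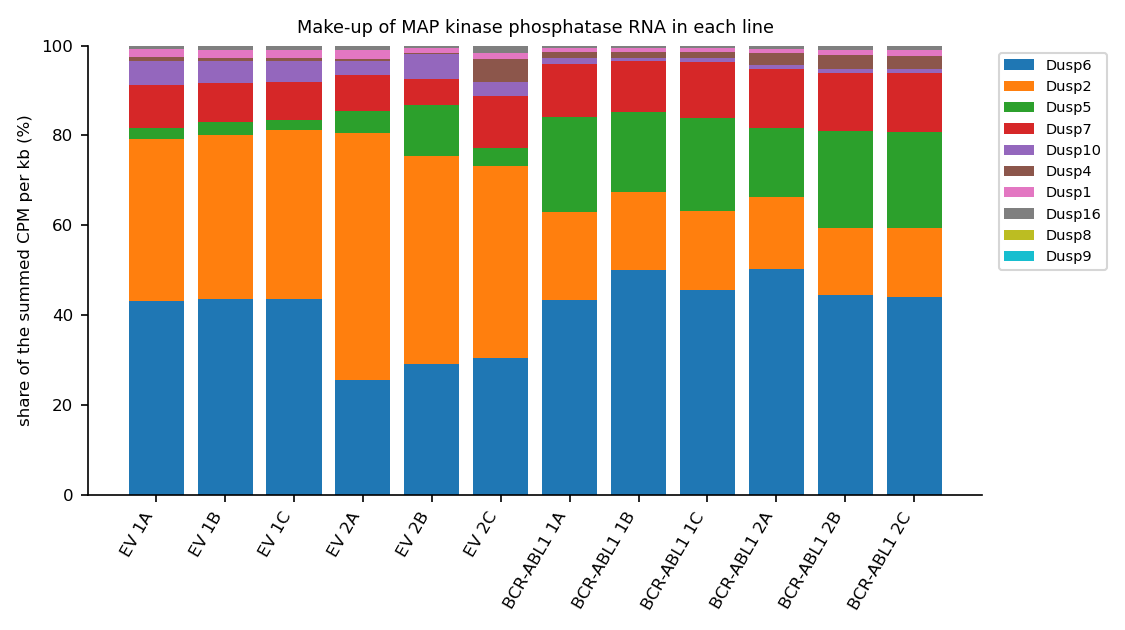
Make-up of the RNA of the family in each of the 12 lines, as the share of each gene in the summed CPM per kb (vertical axis, percent). Dusp2 (orange) takes 35.9% to 54.95% of the bars of EV lines and 14.9% to 19.6% of those of BCR-ABL1 lines, and Dusp5 (green) takes 2.27% to 11.2% and 15.4% to 21.8%.

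Within the conditions the members did not move as one group. Log2 CPM were taken as deviations from the condition means over the 12 lines, and Pearson's r between members is given as a description, since all points share libraries and mice. The highest values were those of Dusp2 with Dusp5 (r = 0.87), Dusp4 with Dusp16 (0.86) and Dusp4 with Dusp7 (0.73), and the lowest was that of Dusp4 with Dusp10 (-0.63). Among EV lines Dusp2 and Dusp5 were both highest in EV 2B and next in EV 2A, while Dusp4, Dusp7 and Dusp16 were all highest among EV lines in EV 2C. Over all 12 lines, with the conditions left in, Dusp2 and Dusp5 had an r of -0.46.

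Among all tested genes, those most like Dusp5 in log2 CPM over the 12 lines were Cdc42se2 (r = 0.989), Gm37511 (0.986) and Myadm (0.985). For Dusp7 they were Sqle (0.988), Mvb12b (0.988) and Gch1 (0.986), and for Dusp10 Hcrtr2 (0.981), Lrrfip2 (0.980) and A430046D13Rik (0.976). An r over 0.9 was reached by 519, 658 and 724 genes with Dusp5, Dusp7 and Dusp10. The difference between the conditions was left in for these r. A gene that differs between the conditions can thus reach a high r without moving with the member within them.

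The genes of the enzymes that these phosphatases act on were next compared. Of 13 MAP kinase genes 8 were tested, and glmTreat called 0 of them, with 1 at an unadjusted p under 0.05, while the likelihood ratio fit and DESeq2 also called 0 and the test against no change called 2. The log2 fold changes were -0.32 for Mapk3, which encodes ERK1, 0.11 for Mapk8 and -0.08 for Mapk9, which encode JNK, and -0.15 for Mapk14, which encodes p38 (FDR 1.00 each). Mapk3 was lower in every BCR-ABL1 line (18.6 to 21.7 CPM) than in any EV line (22.7 to 29.5 CPM), by less than 1.5-fold. Mapk11, another p38 gene that was named after its values were seen, lay higher in every BCR-ABL1 line (3.68 to 6.96 CPM) than in any EV line (0 to 2.42 CPM), without passing the test (log2 fold change 2.33, FDR 0.212). Its EV lines were at 0 to 0.0722 CPM in mouse 1 and 1.53 to 2.42 CPM in mouse 2. The effect differed between the mice for 3 of the 8 genes, against 16.9% of all tested genes. These were Mapk11 (interaction FDR 2.76e-05), Mapk8 (0.0163) and Mapk3 (0.0239). Of the 7 MAP2 kinase genes, which encode the activators of MAP kinases, glmTreat called 0, with 0 at an unadjusted p under 0.05, the likelihood ratio fit and DESeq2 called 0, and the test against no change called 2. Of 14 tested genes for RAS, RAF and their scaffolds and regulators, Ksr1, a scaffold of the RAF and ERK module, was higher (0.811 to 2.36 CPM in EV against 2.61 to 6.14 CPM in BCR-ABL1 lines, log2 fold change 1.47, FDR 0.0174). Rasa2, a GTPase activating protein of RAS, was lower (70.5 to 99.4 CPM in EV against 36.0 to 53.02 CPM in BCR-ABL1 lines, log2 fold change -0.98, FDR 0.00439). With mouse as a block the counts in this list were 2 higher and 1 lower. Over all tested genes 5.99% were called higher and 6.49% lower, and 7.49% and 7.18% with the block.

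Other phosphatases were compared in the same way, beside 5.99% of all tested genes called higher and 6.49% called lower. Of 7 tested genes of MAP kinase phosphatases outside the family, Ptpn5 was called higher at a very low level (0 to 0.318 CPM in EV against 0.305 to 1.14 CPM in BCR-ABL1 lines, log2 fold change 2.54, FDR 0.0474). This call was lost with DESeq2 (FDR 0.107) and when any 1 line other than EV 2A or EV 2B was left out (FDR up to 0.101). Of 11 tested atypical dual specificity phosphatases, Dusp28 was called lower (7.07 to 9.78 CPM in EV against 4.09 to 5.43 CPM in BCR-ABL1 lines, log2 fold change -0.91, FDR 0.0204). The call was lost with the likelihood ratio fit (FDR 0.0606), with DESeq2 (0.0522), with no gene filter (0.135), without EV 1A (0.0554) and without BCR-ABL1 1C (0.0650). With mouse as a block 2 were lower, Dusp23 being the second (FDR 0.0125), where 7.18% of all genes were lower.

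Genes known as transcriptional output of ERK were then examined, as Dusp4, Dusp5 and Dusp6 are often counted with them. Of 16 tested genes 4 were called higher and 1 was called lower, with a median log2 fold change of 0.56. Among all tested genes 5.99% were higher and 6.49% lower. Epha2, a receptor tyrosine kinase, went from 0.0154 to 0.596 CPM in EV lines to 28.5 to 52.9 CPM in BCR-ABL1 lines (log2 fold change 7.76, FDR 1.79e-05). Etv1, an ETS transcription factor, was at 0.0144 to 0.491 CPM in EV against 1.61 to 3.97 CPM in BCR-ABL1 lines (log2 fold change 4.48, FDR 0.000858). Egr2, an early response transcription factor, was lower, at 0.767 to 4.06 CPM in EV against 0.0227 to 0.270 CPM in BCR-ABL1 lines (log2 fold change -3.18, FDR 0.00266). The other 2 called, named after their values were seen, were Ccnd1, which encodes cyclin D1 (log2 fold change 4.43, FDR 0.000560), and Etv5, which encodes another ETS factor (1.21, FDR 0.000123). With mouse as a block Egr1 was called lower as well (FDR 0.0372, against 0.0511 without the block). The sprouty genes and Spred1, which encode feedback inhibitors upstream of ERK, were also named after their values were seen, and 0 of these 4 were called. Spry1, Spry2 and Spry4 had log2 fold changes of 0.89, -0.14 and 0.36 (FDR 0.758, 1.00 and 1.00), with an interaction of mouse and condition for Spry1 (FDR 0.00149). Spred1 was at 0.184 to 0.282 CPM in EV lines of mouse 1, 47.5 to 117.4 CPM in EV lines of mouse 2 and 143 to 182.2 CPM in BCR-ABL1 lines. All BCR-ABL1 lines were thus above all EV lines, but the EV lines differed widely between the mice (log2 fold change 2.13, FDR 0.442, interaction FDR 1.26e-06). In this list 3 of 16 genes had an interaction, Etv1 being the third (FDR 0.0270), where 16.9% of all tested genes had one.

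Of 19 immediate early genes, which also rise when cells are handled, 3 were higher and 1 was lower. With mouse as a block 6 were higher and 3 lower. The shares of all tested genes were 5.99% higher and 6.49% lower, and 7.49% and 7.18% with the block. Fosb and Fos, subunits of AP-1, were higher (log2 fold changes 2.37 and 2.05, FDR 0.00508 and 0.000632), as was Klf6 (1.53, FDR 0.000392), which was named after its values were seen. Zfp36, which encodes an RNA decay factor, was lower (-1.27, FDR 0.0121). Fos was at 0.471 to 1.13 CPM in EV against 2.38 to 4.198 CPM in BCR-ABL1 lines. In this list 8 of 19 genes had an interaction of mouse and condition, against 16.9% of all genes. Jun, which was named after its values were seen, was at 1.13 to 1.18 CPM in EV lines of mouse 1, 16.6 to 23.6 CPM in EV lines of mouse 2, and 36.5 to 55.2 CPM in BCR-ABL1 lines. Its EV lines thus differed between the mice in the same direction as those of Dusp5. In EV lines 13 of the 19 genes of this list were called between the mice, against 24.8% of all tested genes. The directions of the others are not given here, so Jun does not stand for the list. The part of handling in the values of Dusp1, Dusp2 and Dusp5 was not tested.

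**Figure D5:**
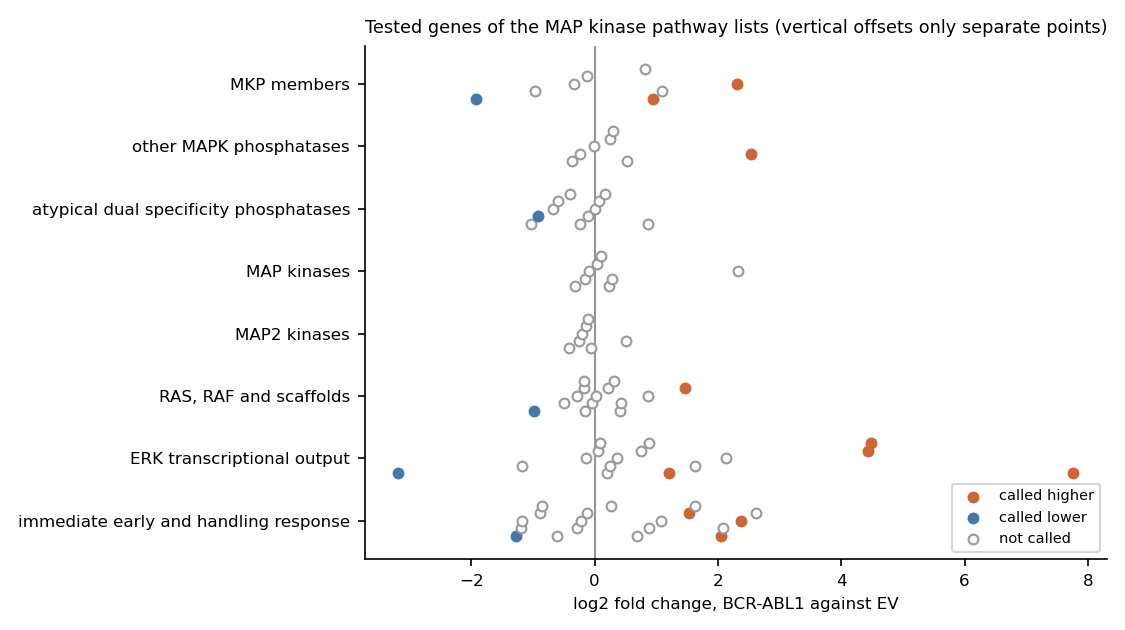
Log2 fold change, BCR-ABL1 against EV (horizontal axis), of the tested genes of the family and of 7 lists of the MAP kinase pathway. Each point is a gene, orange where called higher, blue where called lower and open where not called, and the vertical offsets only separate points. The lists of MAP kinases and MAP2 kinases hold no called gene, whereas the list of ERK output reaches from -3.18 (Egr2) to 7.76 (Epha2).

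Some markers also differed between the conditions, as did 5.99% (higher) and 6.49% (lower) of all tested genes. Of the 16 B lineage markers Bst1 and Dntt were higher (log2 fold changes 6.02 and 4.30, FDR 1.45e-06 and 0.0396) and Il7r was lower (-1.06, FDR 0.00328). With mouse as a block 1 was higher and 1 lower, Dntt having an FDR of 0.0533. Trac and Cd3d were lower among 3 tested T and NK cell markers (-5.46 and -2.67, FDR 3.70e-05 and 0.000511), and Hbb-bt was higher among 2 tested erythroid markers (1.72, FDR 0.0296). Of 12 genes of the p53 response, 5 were higher, led by Eda2r and Phlda3 (5.91 and 2.91, FDR 7.14e-05 and 2.02e-06), and Trp53inp1 was lower (-1.23, FDR 0.0421). The other 3, named after their values were seen, were Zmat3, Ccng1 and Bbc3 (2.32, 1.24 and 0.97). Of the calls in this paragraph, those of Dntt, Hbb-bt, Bbc3 and Trp53inp1 were lost when any of 8, 6, 8 and 10 of the 12 lines was left out (FDR up to 0.0798, 0.0655, 0.0771 and 0.0875). Whether these differences in cell state bear on the members was not tested.

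Besides the CArG and CCAAT boxes, 3 further motifs were searched on both strands of the 250 bases before the RefSeq start of the 8 members found in the promoter table (all but Dusp4 and Dusp9). TGACGTCA, the cAMP response element, was found in Dusp1 and Dusp8, against 1.55% of all promoters. CGGAAG, the core of ETS sites, was found in Dusp6 alone, against 13.6%. TTCNNNGAA, the element of STAT factors, was found in 0 of the 8, against 7.02%. No match overlapped with another. A match here is a run of letters in this window and says nothing of binding.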

How the data were processed

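RNA of 6 EV and 6 BCR-ABL1 lines was sequenced from stranded total RNA libraries. The authors deposited whole-number counts per gene, neither normalized nor pooled. The submitters' processing notes name FastQC 0.11.5, Trimmomatic 0.36, TopHat2 2.1.1, Bowtie2 2.3.2, featureCounts 1.5.3, R 3.6.1, edgeR 3.18.1 and GRCm38, without their settings. Symbols and positions came from GENCODE M21.

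The counts were analysed in R 4.3.3 (edgeR 4.0.16, DESeq2 1.42.0, limma 3.58.1), and figures were drawn in Python 3.11.15 (matplotlib 3.10.9). Genes were filtered with filterByExpr, scaled by TMM and tested with glmTreat against 1.5-fold on the quasi-likelihood fit over all 12 lines, with condition as the only term. FDR is the Benjamini-Hochberg adjusted p over the 15038 genes tested. CPM are scaled by TMM and log2 CPM have a prior count of 2. Standard errors are those of the difference of mean log2 CPM, from the spread over the lines of each condition. They do not come from the fit, and that difference can depart from the fitted log2 fold change beside them. Contrasts between the mice used glmQLFTest on 4 groups of 3 lines, with the spread of each gene estimated over all 4 groups. Counts of 3 or fewer were taken as background, and this floor covers counting error only. Depth was 34791011 to 66011225 counts per line, at which the 8 tested members had 36 counts or more in every line and Dusp8 and Dusp9 had 0 to 37.

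The members, the gene lists and the rule for named genes (all members, 5 MAP kinases, up to 2 called genes of each list that rose most and up to 2 that fell most, and the 3 genes most correlated with each called member) were chosen with earlier results of these data known. Some genes covered by the lists and this rule are not reported here. The alternatives changed the normalization (RLE), the filter (none, or 6 or more lines at a CPM of 1 or more), the test (likelihood ratio, DESeq2, no change as the null), the block (mouse, line pair) or the lines (1 mouse alone, 1 line left out). Leaving out EV 2B and EV 2C together was added after seeing the data.

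Equal first digits of line names mean the same mouse by the labels. Deviations from the condition means were correlated between EV and BCR-ABL1 lines. The 6 pairs of equal mouse and letter had an r of 0.0853 to 0.212, and the 12 other pairs of one mouse 0.0937 to 0.240. The 18 pairs of different mice had -0.203 to -0.0636. Such deviations cancel within a condition, which ties these ranges together, so the negative values are no separate evidence. Lines of one mouse were more alike than lines of different mice. On simulated counts for BCR-ABL1 against EV with 200 changed genes among 14913 tested, glmTreat recovered 198 and called 1 other. For the interaction with 200 changed among 14904, glmQLFTest recovered 181 and called 8 others. In both, only genes with higher counts were changed, by log2 values larger than the fold change of any tested member but Dusp5. No difference between the mice in EV lines and no outlying line was simulated. These counts therefore give no error rate for the calls of the members.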

Additional observations from a re-analysis of the deposited data

Results flagged for a closer look

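In 7 of 20 groups of 6 lines (10 members in 2 conditions), 1 line lay further from the others than Dixon's 95% limit allows, where chance alone gives about 1 such group in 20. Among EV lines these were EV 2C for Dusp4 (13.4 CPM) and Dusp16 (12.8 CPM), EV 2B for Dusp5 (38.2 CPM) and Dusp10 (22.9 CPM), and EV 2A for Dusp8 (0.399 CPM) and Dusp9 (0.307 CPM), each of which was the highest. All 6 belong to mouse 2. Among BCR-ABL1 lines the lowest value of Dusp5, 48.8 CPM in BCR-ABL1 2A, lay apart. EV 2A, the line with the fewest counts, also had counts on the largest share of the genes that were too low to be tested (57.4%), and EV 2C differed most from the other EV lines of its mouse over all genes. The part of these features in these values was not tested.

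The BCR-ABL1 effect differed between the mice for Dusp2 (interaction -1.13, FDR 0.00218) and for Dusp5 (interaction -2.06, FDR 0.0291), by edgeR's quasi-likelihood test.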

How the results depend on the processing

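The 2 higher and 1 lower calls among the members were kept in number with RLE factors, a CPM filter, the likelihood ratio fit, DESeq2 and with mouse or line pair as replicate block, and the block changed the call of no member. Lower calls were 2 with no gene filter (Dusp8 being tested), against no change and in mouse 2 alone, and 1 to 2 with a line left out. Higher calls were 0 in mouse 2 alone and 2 to 3 with a line left out. Over all genes, 901 were higher and 976 lower with all lines, 1126 and 1080 with mouse as replicate block, 3389 and 3897 against no change, 2512 and 1877 in mouse 1 alone and 614 and 408 in mouse 2 alone. They were 807 to 1353 and 802 to 1434 with a line left out, and 1432 were higher without EV 2B and EV 2C together. The cause of these shifts was not tested. The log2 fold change of Dusp16 lay between -0.21 and 0.13 with a line left out, reversed without EV 2C, and was 0.085 without EV 2B and EV 2C together. Between the mice, with no gene filter 4 members were called in EV lines (Dusp4 and Dusp9 added) and 2 in BCR-ABL1 lines (Dusp4 and Dusp9). The share of all genes called in that setting is not given here, so these counts have no background. With a line left out, 1 to 3 were called for the interaction, 2 to 3 in EV lines and 0 to 3 in BCR-ABL1 lines. The shares of all genes were 16.9%, 24.8% and 5.97% with all lines and 36%, 45.7% and 16.1% without EV 2C. Those without any other line are not given here. Scaling moved the median log2 fold change of all genes by 0.0225 (RLE). Dusp8 and Dusp9 had the fewest counts of the members when summed over the lines, and the part of depth in their values was not tested.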
